A study of Mus musculus with 20 samples.

Results

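The genes described here are 10 autosomal genes of the mouse germline, Dazl, Ddx4, Sycp1, Sycp3, Mael, Tdrd1, Tex101, Hormad1, Stk31 and Asz1, which are kept silent in body tissues by methylation of their promoters. They were chosen by symbol as known genes of this class and not by their values, and each had 1 row among the 30142 named genes of the array. In tumor-bearing bladders treated with an inhibitor of DNA methyltransferases and G9a plus cisplatin, none of the 10 was called as different from untreated bladder tumors. Neither was any other of the 30142 genes (0% at an adjusted p under 0.05 in limma, 3 treated bladders against 7 tumors). An unadjusted p under 0.05 in the same limma fit was reached by 0.488% of all genes and by none of the 10. The largest difference among the 10 was 0.07 on the log2 scale, where 1 is 2-fold. Set against the 95th percentile of genes that are not expected to be transcribed in bladder, 8 of the 10 were above it on no array, Ddx4 on 1 and Sycp3 on 16 of 20. Of all genes, 15.86% to 42.64% passed this level, depending on the array.

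RNA was extracted from formalin-fixed, paraffin-embedded tissue of FVB/N mice and hybridised to 20 Affymetrix whole-transcript arrays, 12 ng of RNA each. Treated bladder (n = 3) and treated metastasis (n = 1) came from mice given an adenovirus coding for Cre recombinase in the bladder, then CM272 at 5 mg/kg per day for 30 days and CDDP (cisplatin) at 6 mg/kg once per week. Metastasis (n = 4) and bladder tumor (n = 7) are the untreated tumor tissues, the second labelled as inoculated with the same adenovirus, and control bladder (n = 5) is bladder whose labels name no adenovirus and no treatment. All groups, the controls included, carry 1 genotype, which includes Rb f/f and p107-/-. Cre recombinase deletes floxed alleles in the cells that the virus reaches. The agents were given together, so their effects cannot be told apart. The labels number the samples without naming animals, and some of the spread that the p-values rest on may therefore be technical. No DNA methylation was measured in the data used here.

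Many germline genes have promoters rich in CpG dinucleotides that receive DNA methylation in the early embryo, and the maintenance methyltransferase Dnmt1 copies that methylation at each cell division. A variant Polycomb complex that contains E2f6 and the E-box binding pair Mga and Max, together with G9a (Ehmt2) and its histone mark, takes part in shutting these genes off in mouse embryonic cells. Loss of DNA methylation is known to switch some of them on in dividing cells, and in tumors their products are studied as cancer-testis antigens.

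The CpG content of the promoters was counted first. In the 250 bases before the start site (RefSeq, GRCm38.p6), the 10 genes had 11 to 31 CpG dinucleotides with a median of 17.5, against a median of 9 over the 17970 genes with a promoter sequence. Ddx4 had the highest count, 31, and Tdrd1 the lowest, 11. The window ended at the annotated 5′ end of the gene for 7 of the 10 and at another start site for Ddx4, Tdrd1 and Stk31. Sequences of 4 genes are shown 5′ to 3′ with each CpG in capitals: Dazl as a gene with no E-box here, Sycp3 as the gene most often above array background, Hormad1 as the one with the largest difference under treatment, and Tex101 as the one that varied least between arrays.
Dazl (chr17:50293621-50293870, minus strand): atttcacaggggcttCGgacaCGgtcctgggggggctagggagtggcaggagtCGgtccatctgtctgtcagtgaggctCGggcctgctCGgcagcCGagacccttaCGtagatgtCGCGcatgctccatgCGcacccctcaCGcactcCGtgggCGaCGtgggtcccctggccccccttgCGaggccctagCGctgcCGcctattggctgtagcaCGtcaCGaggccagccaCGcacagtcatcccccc
Sycp3 (chr10:88459337-88459586, plus strand): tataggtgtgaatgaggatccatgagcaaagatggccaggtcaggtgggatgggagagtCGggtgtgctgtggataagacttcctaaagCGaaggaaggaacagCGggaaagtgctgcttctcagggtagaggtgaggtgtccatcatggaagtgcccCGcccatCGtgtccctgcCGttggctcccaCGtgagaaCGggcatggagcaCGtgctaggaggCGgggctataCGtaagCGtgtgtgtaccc
Hormad1 (chr3:95559427-95559676, plus strand): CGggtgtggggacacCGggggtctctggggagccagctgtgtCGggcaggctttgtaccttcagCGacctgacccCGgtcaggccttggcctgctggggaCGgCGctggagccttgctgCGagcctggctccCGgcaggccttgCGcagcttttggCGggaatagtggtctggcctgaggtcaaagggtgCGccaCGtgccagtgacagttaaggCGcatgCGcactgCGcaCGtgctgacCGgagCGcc
Tex101 (chr7:24672051-24672300, minus strand): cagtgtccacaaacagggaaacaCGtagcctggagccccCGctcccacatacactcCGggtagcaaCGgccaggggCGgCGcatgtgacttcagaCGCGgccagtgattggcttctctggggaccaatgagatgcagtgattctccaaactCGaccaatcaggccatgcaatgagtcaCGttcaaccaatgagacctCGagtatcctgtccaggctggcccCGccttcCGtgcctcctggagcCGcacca
Dazl had 20 CpG dinucleotides, Hormad1 19, Tex101 14 and Sycp3 12.

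The letters CACGTG, an E-box that reads the same on both strands, stood in 7 of the 10 promoters, in all but Dazl, Tex101 and Asz1. The same letters were in 6.68% of all promoters of this length and in 9.99% of those with at least 11 CpG dinucleotides. Sycp3 held 2 copies, 64 and 43 bases before the start site, and Hormad1 held 2, 57 and 20 bases before it. The letters GGCGGGA on either strand, a form of the E2F site, stood in Ddx4, Mael and Hormad1, against 12.37% of all promoters and 22.75% of those with at least 11 CpG dinucleotides, and never overlapped an E-box in the 10 genes. Both motifs were chosen after the sequences had been seen, and a match describes the letters only.

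**Figure D1:**
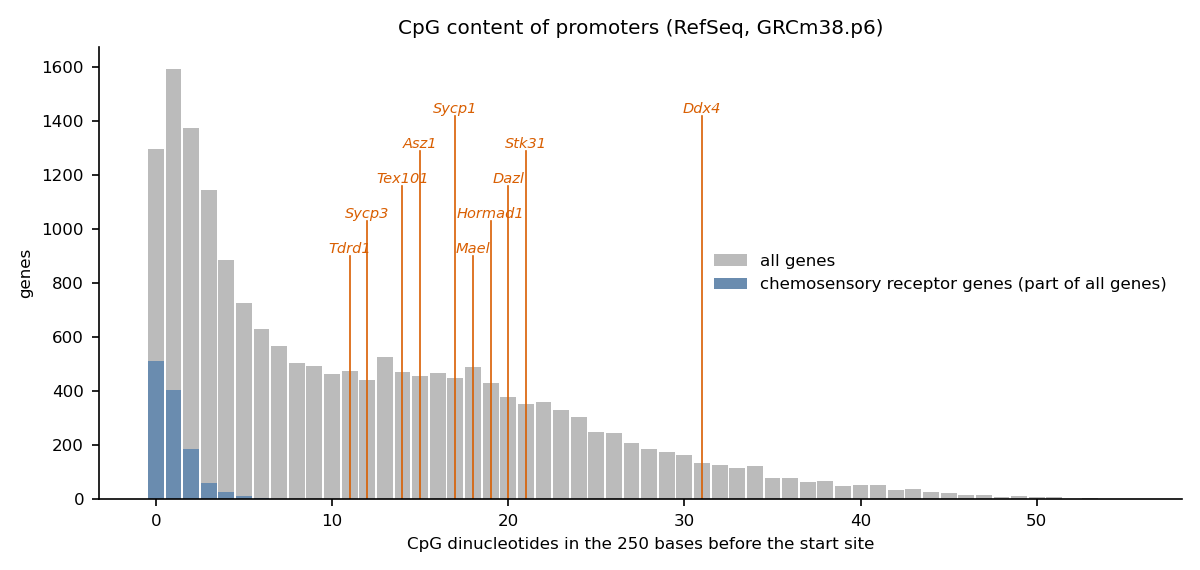
Number of CpG dinucleotides in the 250 bases before the start site (horizontal axis) against the number of genes (vertical axis), for all 17970 genes (gray) and for chemosensory receptor genes (blue), with a vertical line at each of the 10 germline genes. All 10 lie between 11 and 31, above the median of all genes, 9.

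Signal that does not come from the gene itself sets a floor on each array. As a measure of it, 1733 chemosensory receptor genes (olfactory, vomeronasal and trace amine receptors) were taken. That most of these genes are silent in bladder was assumed and not tested. Their mean ran from 4.63 to 5.26 between arrays. A germline gene was counted as above background on an array where it exceeded the 95th percentile of these genes there, a level that 15.86% to 42.64% of all genes passed. The probes of a gene bind with their own strength, so a place within this range is not an amount of RNA. In bulk tissue, fewer cells of a type and less RNA per cell cannot be told apart.

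The arrays also fell into 2 sets. On 8 arrays (metastasis 3 and 4, bladder tumor 3, 4 and 5, control bladder 4, 5 and 6) the deviations from the mean of all arrays correlated with no other array above 0.139, and on the other 12 the highest such correlation was 0.328 to 0.609. None of the treated arrays was among these near-mean arrays, so each comparison of the 10 genes is also given without them. How these 8 arrays came to differ, and whether their values had a further step of processing, is not given in sources used for this work, and such a step would change what their part in the group means, SDs and n stands for. Xist, the RNA of the inactive X chromosome in females, was at 5.82 to 6.09 on the 8, against 10.8 and 10.9 in control bladder 1 and 2 and 4.47 to 6.44 on the other 10. Of 10 urothelium markers, 7 to 9 were above background in treated bladder, 4 in the treated metastasis, 3 to 9 in metastasis, 3 to 10 in bladder tumor and 9 in control bladder. Of 8 smooth muscle markers, 6 to 8 were above it in treated bladder, 3 in the treated metastasis, 2 to 7 in metastasis, 1 to 8 in bladder tumor and 7 to 8 in control bladder. The 9 and the 7 in metastasis came from metastasis 3 and 4, both near-mean arrays. Urothelium and smooth muscle counts were 3 and 5 in metastasis 1, and 6 and 2 in metastasis 2. The mean of the smooth muscle markers was 6.58 to 6.81 on the 8 near-mean arrays, whatever their group, against 5.36 to 9.62 on the other 12. That of the urothelium markers was 6.84 to 7.03, against 5.37 to 9.96. Of 8 markers of sperm-forming cells after meiosis and of 8 markers of male accessory glands, at most 1 was above background on any array.

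Over the 200 pairs of a germline gene and an array, 17 were above background. Sycp3 made up 16 of them and Ddx4 the remaining 1, in bladder tumor 6. The other 8 genes were above background on none of the 20 arrays. Sycp3 was above it on 6 of the 8 near-mean arrays and on 10 of the other 12. SDs over the 20 arrays ran from 0.105 for Tex101 to 0.370 for Sycp3, against a median SD of 0.355 for the chemosensory genes and 0.263 for all genes. Sycp3 exceeded both medians, and the other 9 were below both.

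Sycp3, which builds the axial and lateral elements of the synaptonemal complex that holds paired chromosomes in meiosis, had log2 values of 5.81, 6.09 and 6.34 in treated bladder. It was at 6.08 in the treated metastasis and at 7.08, 6.12, 6.14 and 5.53 in metastasis. In bladder tumor the lowest value was 5.58, the median 6.13 and the highest 6.30, and control bladder had 5.84, 5.73, 5.70, 6.72 and 6.32. The treated values lay inside the range of the untreated ones, and the highest signals came from metastasis 1 and control bladder 5, neither of them treated. Sycp3 was above background in 2 of 3 treated bladders, the treated metastasis, 3 of 4 metastases, 7 of 7 bladder tumors and 3 of 5 control bladders. Only those 2 highest values also passed the 99th percentile of the chemosensory genes.

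Sycp1, the transverse filament that links the lateral elements, had 5.52, 5.16 and 5.25 in treated bladder, against a lowest value of 5.04, a median of 5.28 and a highest of 5.70 in bladder tumor. Control bladder spanned only 5.09 to 5.28. Hormad1, which marks chromosome axes that have not yet paired, had 5.62, 4.90 and 5.54 in treated bladder. Its values in bladder tumor had a lowest of 5.08, a median of 5.35 and a highest of 5.48, and control bladder had 5.31, 5.36, 5.16, 5.85 and 5.50. Treated bladder 1 and 3 thus exceeded every tumor for Hormad1, while treated bladder 2 was below all of them. Control bladder 5, a near-mean array, was higher than any treated array. Without the near-mean arrays the highest untreated value was 5.48, in bladder tumor 2, below treated bladder 1 and 3.

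Ddx4, the mouse relative of the fly RNA helicase Vasa, had 5.73, 5.37 and 5.81 in treated bladder. In bladder tumor its lowest value was 5.26, its median 5.54 and its highest 5.99, and control bladder had 5.46, 5.51, 5.26, 5.73 and 5.89. The groups overlapped throughout. Dazl, an RNA-binding protein that promotes translation in germ cells, had 4.77, 4.68 and 4.86 in treated bladder, against a lowest of 4.45, a median of 4.89 and a highest of 5.18 in bladder tumor. Control bladder ran from 4.65 to 4.95. All 3 treated values of Dazl were below the tumor median.

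Mael, Tdrd1 and Asz1 act in the piRNA pathway, which silences transposons in male germ cells. Mael had 5.00, 4.60 and 5.12 in treated bladder, against a lowest of 4.48, a median of 5.04 and a highest of 5.32 in bladder tumor. Tdrd1 had 4.99, 4.69 and 5.04 in treated bladder, and 4.63, 4.76 and 5.13 as the lowest, median and highest tumor. For both genes treated bladder 2 was the lowest treated array, as it was for Ddx4, Sycp1, Hormad1, Dazl, Stk31 and Asz1. The background of that array was also the lowest of the treated ones, with a chemosensory mean of 4.78 against 5.11 and 5.17 in treated bladder 1 and 3. The part of the background in these values was not tested. Asz1 had 5.25, 5.11 and 5.18 in treated bladder, within the tumor range of 4.73 to 5.37.

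Stk31, a testis protein with a Tudor and a kinase domain, had 5.06, 4.72 and 5.29 in treated bladder, against a lowest of 4.72, a median of 4.93 and a highest of 5.37 in bladder tumor. Tex101, a surface protein of germ cells that mouse sperm need to reach the egg, had 4.38, 4.38 and 4.20 in treated bladder, and 4.19, 4.28 and 4.52 as the lowest, median and highest tumor. It was the least variable of the 10, at a median place of 14.45% within the chemosensory genes of the same array.

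Among the untreated metastases, Mael had 4.53, 4.78, 4.97 and 4.46, and Asz1 had 4.70, 4.96, 5.02 and 5.12. Ddx4 had 5.32, 5.46, 5.53 and 5.53 there, and Sycp1 5.02, 5.21, 5.68 and 5.60. Metastasis 1 was the lowest of these arrays for Asz1, Ddx4, Sycp1, Dazl, Hormad1 and Tex101, while it was the highest for Sycp3. Only 1 germline gene, Sycp3, was above its own mean over all arrays there, so Sycp3 alone departed from the rest. The chemosensory mean of metastasis 1 was 4.67, against 4.89 to 4.94 in the other untreated metastases. Dazl spanned 4.65 to 4.95 in metastasis, Tdrd1 4.73 to 5.12, Hormad1 4.94 to 5.41, Stk31 4.83 to 5.20 and Tex101 4.22 to 4.40. In control bladder, Mael spanned 4.67 to 4.94, Tdrd1 4.75 to 5.00, Asz1 4.90 to 5.40, Stk31 4.80 to 5.17 and Tex101 4.13 to 4.44. Each of these ranges overlapped that of the same gene in treated bladder, though only just for Asz1 in metastasis. There its highest value was 5.115, against a lowest of 5.114 in treated bladder, and the other metastases were below every treated bladder.

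**Figure D2:**
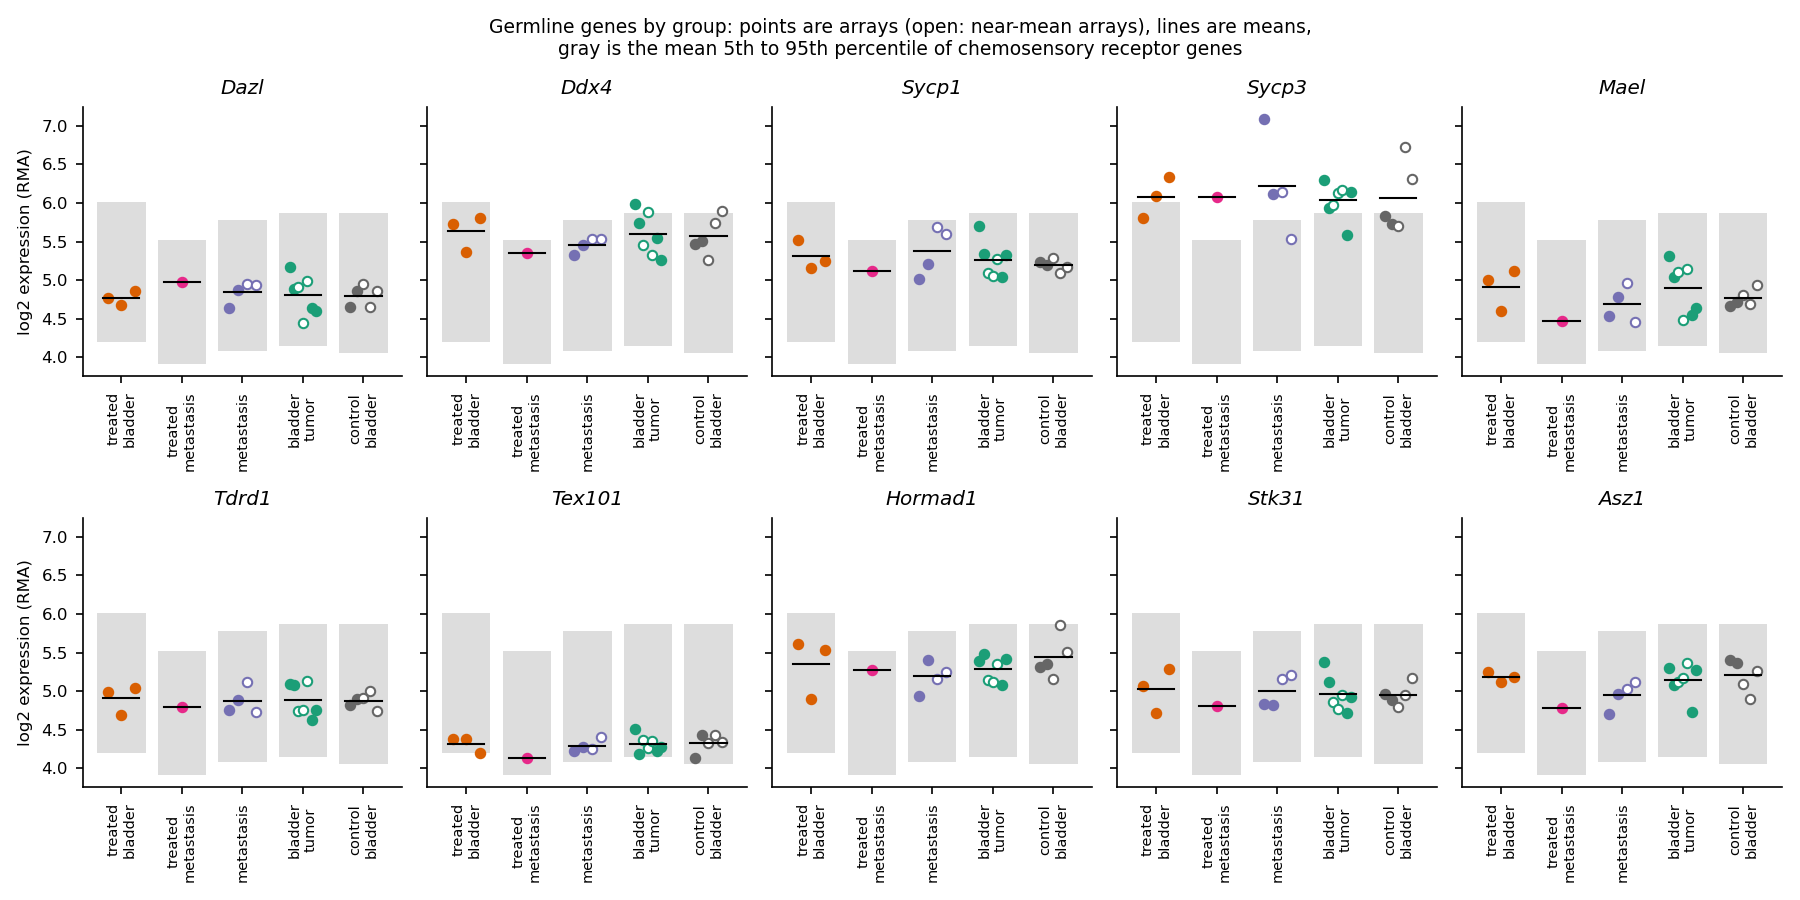
Log2 expression (vertical axis) of each germline gene by group, with 1 point per array, open where the array is near the overall mean, a line at the group mean and, in gray, the mean 5th to 95th percentile of the chemosensory receptor genes. Sycp3 sits near or above the top of the gray range, Tex101 near its foot, and treated bladder overlaps the untreated groups in all 10 panels.

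On arrays at the ends of the background range, these values went with the array's own level. On bladder tumor 1, which had the highest chemosensory mean, 5.26, all 10 germline genes were above their own means over the 20 arrays. On bladder tumor 6, with a chemosensory mean of 4.65, none was, and on the treated metastasis, with the lowest, 4.63, 1 was. The 8 near-mean arrays had chemosensory means of only 4.90 to 4.94, and there 3 to 8 of the 10 were above their own means. The mean of the 10 genes exceeded the chemosensory mean by 0.099, 0.188 and 0.097 in treated bladder, and by 0.094 to 0.351 over all arrays.

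**Figure D3:**
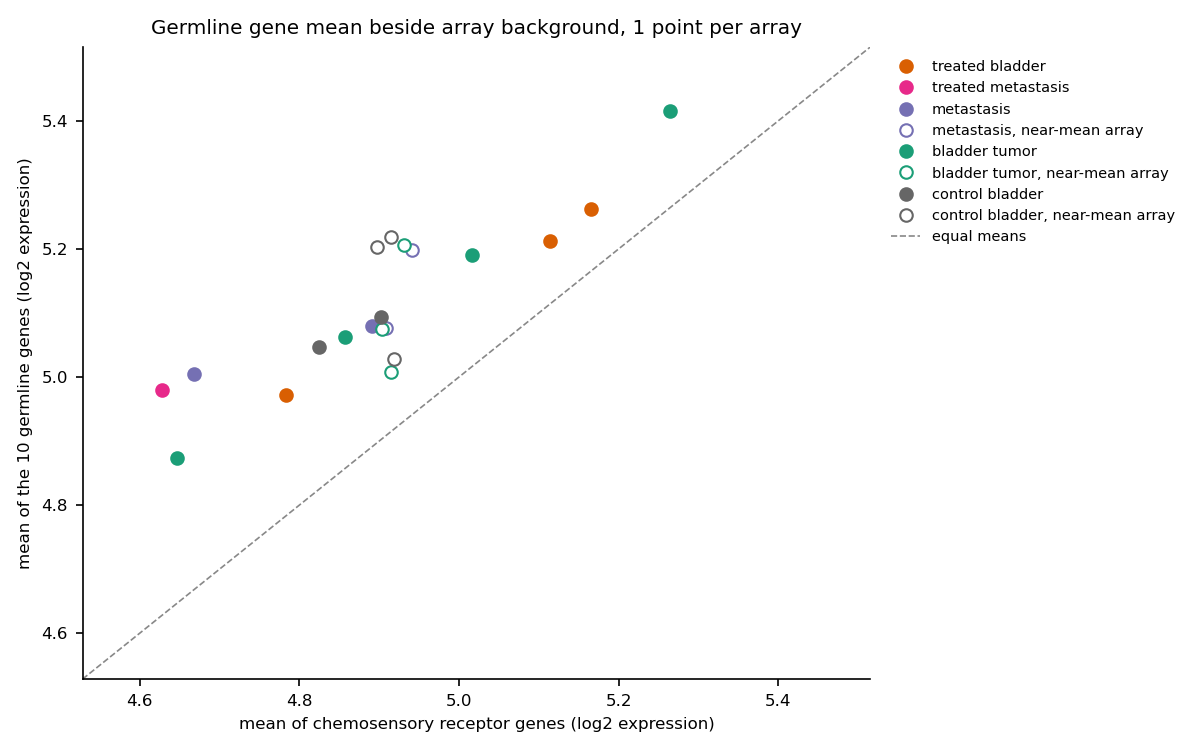
Mean of the 10 germline genes (vertical axis, log2) against the mean of the chemosensory receptor genes (horizontal axis, log2), 1 point per array, with a dashed line where both are equal. The arrays lie 0.094 to 0.351 above the line, the treated bladders 0.097 to 0.188 above it.

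Treated bladder against bladder tumor asks whether the 10 genes came on under CM272 and cisplatin. None passed an adjusted p under 0.05 (limma, Benjamini-Hochberg over all 30142 genes), where 0% of all genes did. None had an unadjusted p under 0.05, against 0.488% of all genes, and none had groups that did not overlap, against 0.166%. Hormad1 averaged 5.35 ± 0.39 in treated bladder and 5.28 ± 0.16 in bladder tumor (SD, n = 3 and 7), a difference of 0.07 with a 95% interval of -0.27 to 0.41. Stk31 differed by 0.06 (-0.25 to 0.37), Sycp1 by 0.05 (-0.27 to 0.37), and Sycp3 by 0.04 (-0.52 to 0.60). Dazl was the only one with a lower mean in treated bladder, with a difference of -0.04 (-0.32 to 0.25). The intervals end at 1.52-fold higher for Sycp3 and at 1.15-fold (Tex101) to 1.33-fold (Hormad1) higher for the other 9. A value near background understates a fold change, so these bounds hold for the array signal.

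The other 5 differences ran from 0.01 for Tex101 and Mael to 0.04 for Ddx4. In all, 9 of the 10 were higher in treated bladder, with a median difference of 0.036. Of all genes, 49.36% were higher, with a median of -0.002. The chemosensory genes had a median difference of 0.076 in the same comparison and 69.88% of them were higher. That is a larger median difference than that of the germline genes, but a smaller share. Without the near-mean arrays (3 treated bladders against 4 tumors), 7 of 10 were higher with a median of 0.015, against -0.015 over all genes. None of the 10 was called there, where again 0% of all genes were, and the highest interval end was 0.65, for Sycp3.

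**Figure D4:**
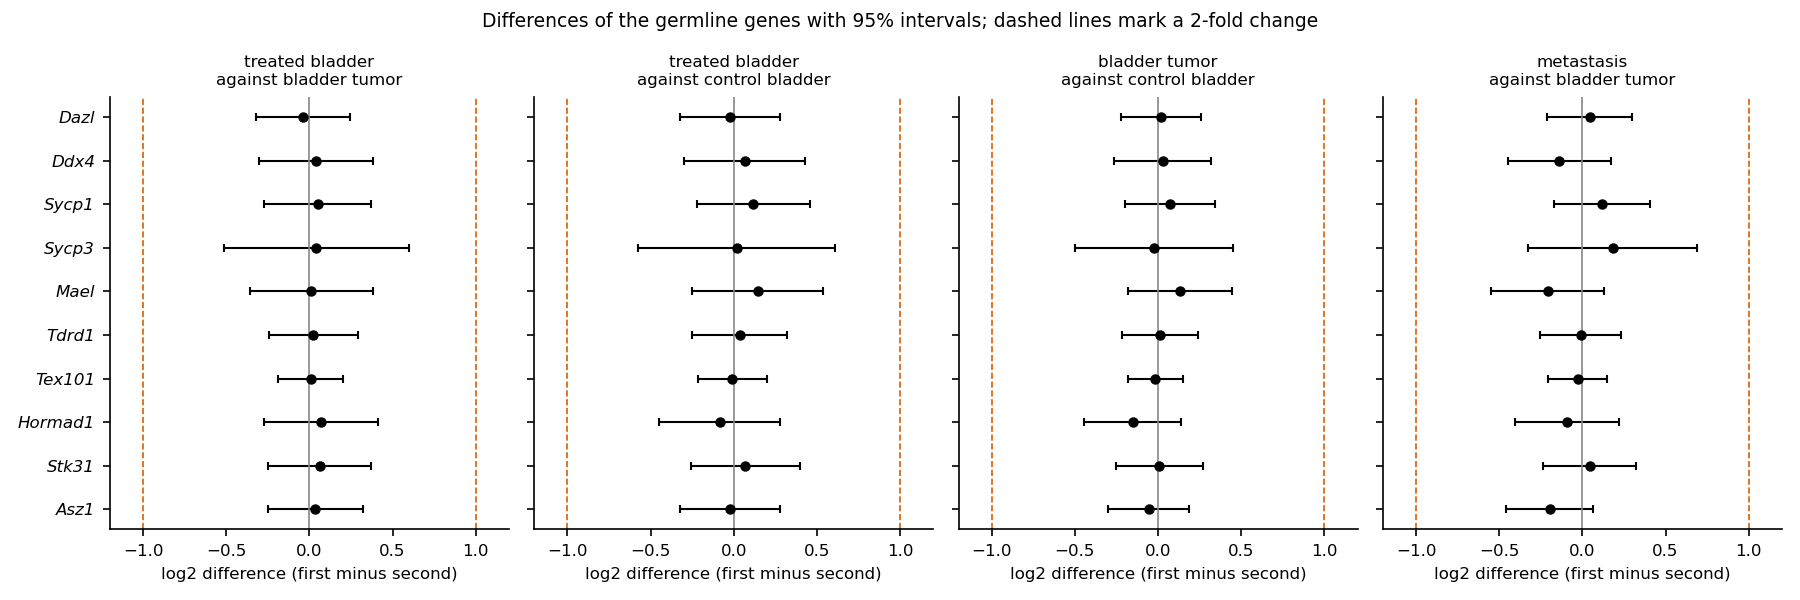
Log2 difference (horizontal axis, first group minus second) of each germline gene (rows) in 4 comparisons, with points at the fitted difference and bars for 95% intervals. Every interval crosses 0 and lies inside the dashed lines at a 2-fold change.

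Treated bladder against control bladder gave no call among the 10 (limma), where 0% of all genes were called, 0.763% had an unadjusted p under 0.05 and 1.19% had groups that did not overlap. None of the 10 met either of these looser marks. The differences ran from -0.08 for Hormad1 to 0.14 for Mael, with 6 of 10 higher, against 76.92% of the chemosensory genes and 52.77% of all genes. Mael averaged 4.91 ± 0.27 in treated bladder and 4.76 ± 0.11 in control bladder (SD, n = 3 and 5). Without the near-mean arrays, which leaves 2 controls, 9 of 10 were higher, from -0.20 for Asz1 to 0.29 for Sycp3. Their median difference there was 0.0771, against 0.0445 over all genes. None of the 10 was called, and 0.00332% of all genes were. The 1 gene called was Xist, named after its values were seen, which was at 5.98, 5.59 and 6.44 in treated bladder, against 10.8 and 10.9 in the 2 controls left. A difference in sex between these groups cannot be told apart from the rest of their difference. This comparison shares its treated arrays with the one above.

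Bladder tumor against control bladder gave no call among the 10 (limma), where 0% of all genes were called, 4.28% had an unadjusted p under 0.05 and 0.179% had groups that did not overlap. None of the 10 met these marks either. Hormad1 had the lowest difference, -0.15, with 5.28 ± 0.16 in bladder tumor and 5.44 ± 0.26 in control bladder (SD, n = 7 and 5), and Mael the highest, 0.13. All 10 intervals ended below a 2-fold change in either direction. Without the near-mean arrays 9 of 10 were higher in bladder tumor, with a median of 0.0926 against 0.0593 over all genes. With them 6 of 10 were higher, against 58.8% of the chemosensory genes and 53% of all genes. Below are the values without them. Asz1 was lowest, at -0.29, Sycp3 highest, at 0.21, and Hormad1 at 0.01. None of the 10 was called, where 0.00332% of all genes were. The 1 gene was again Xist, at 4.52 to 4.89 in the 4 tumors, against 10.8 and 10.9 in the same 2 controls.

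Metastasis against bladder tumor gave no call among the 10 (limma), where 0% of all genes were called, 6.00% had an unadjusted p under 0.05 and 0.514% had groups that did not overlap, and none of the 10 met the looser marks. Mael was lowest, at -0.21 (-0.55 to 0.13), and Sycp3 highest, at 0.18 (-0.32 to 0.69), with 6.22 ± 0.64 in metastasis and 6.04 ± 0.23 in bladder tumor (SD, n = 4 and 7). Without the near-mean arrays the Sycp3 difference was 0.61 (-0.02 to 1.24), with metastasis 1 as 1 of the 2 metastases left. There, 9 of the 10 were lower in metastasis, with a median of -0.1854 against -0.0741 over all genes. None of the 10 was called, and 0.0133% of all genes were. With all arrays, 4 of the 10 were higher in metastasis, against 35.37% of the chemosensory genes and 43.81% of all genes.

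The treated metastasis is 1 sample and was set beside the 4 metastases with no test. Dazl was above their range, at 4.98 against a highest value of 4.95, where 14.4% of all genes were above it. Tex101, at 4.13 against a lowest of 4.22, and Stk31, at 4.81 against a lowest of 4.83, were below it, where 19.1% of all genes were. The other 7 lay inside. Dazl stood above 77.2% of the chemosensory genes on that array, short of the 95th percentile.

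Genes of the same pathways were read from the same fit. Of 14 further piRNA genes, 24 further genes of meiotic chromosomes and 8 X-linked germline genes, none passed in any of the 4 comparisons. In treated bladder against bladder tumor, 9 of the 14 piRNA genes were higher with a median of 0.01, 15 of the 24 meiotic genes with a median of 0.01, and 4 of the 8 X-linked genes with a median of -0.01. Piwil4, a Piwi protein that guides DNA methylation of transposons in fetal male germ cells, averaged 4.94 ± 0.12 in treated bladder and 4.85 ± 0.09 in bladder tumor. Mei4, needed for meiotic DNA breaks, averaged 4.27 ± 0.17 in treated bladder and 4.38 ± 0.17 in bladder tumor. Magea4, an X-linked cancer-testis gene, averaged 4.59 ± 0.24 in treated bladder and 4.74 ± 0.23 in bladder tumor (SD, n = 3 and 7 for each).

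Of 15 writers and readers of germline gene silencing, 5 were higher and 10 lower in treated bladder, and none passed. Dnmt1 averaged 7.11 ± 0.61 in treated bladder and 7.50 ± 0.55 in bladder tumor, a difference of -0.39 (-1.08 to 0.30). Ehmt2 averaged 6.79 ± 0.17 in treated bladder and 6.77 ± 0.12 in bladder tumor, and E2f6 5.28 ± 0.18 in treated bladder and 5.44 ± 0.16 in bladder tumor (SD, n = 3 and 7 for each). These are RNA levels and say nothing of enzyme activity. Most tissue markers were higher in treated bladder: 9 of 10 for urothelium (median difference 0.57) and 7 of 8 for smooth muscle (median 0.65). Upk3b (-0.37) and Smtn (-0.04) were lower. The urothelial keratin Krt7 averaged 7.30 ± 0.60 in treated bladder and 6.86 ± 0.62 in bladder tumor. The smooth muscle actin Actg2 averaged 8.36 ± 2.08 in treated bladder and 7.14 ± 2.06 in bladder tumor. No marker of either tissue passed. Their part in the germline gene values was not tested.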

How the data were processed

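Total RNA from FFPE tissue was hybridised to Affymetrix whole-transcript arrays, per the labels' protocols. Per the submitters' processing notes, the authors used RMA and Affymetrix Expression Console, and their deposited values are log2 expression. Their versions and settings are not given in sources used for this work. RMA normalizes between arrays, which removes overall differences in RNA amount. The table holds 65956 rows. Rows with 1 symbol in the platform annotation were kept, symbols were updated by gene ID through a GRCm38.p6 table, and the row with the highest mean stood for each of 355 genes that had several, giving 30142 genes. The 10 germline genes had 1 row each.

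The 19 arrays of the 4 groups with replicates entered 1 limma fit (lmFit, eBayes, version 3.58.1 in R 4.3.3) of group means without covariates. Benjamini-Hochberg adjustment of two-sided p-values ran over all genes in each of 4 comparisons with calls under 0.05. Intervals are 95% and not adjusted. The number of arrays limits the precision. The fit was also run on simulated data with independent normal noise on each array. That setting has no near-mean arrays, so it cannot tell how the fit does with them. The genes, lists and tests were chosen with earlier results of these data known.

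Named were all 10 germline genes, Dnmt1, Ehmt2 and E2f6, and from each other list up to 3 genes that passed or else the 1 with the smallest p in treated bladder against bladder tumor. Under this rule Prm2 (difference 0.18) was named for post-meiotic germ cells and Svs3a (0.18) for accessory glands, and neither passed. Both went against most of their lists. In treated bladder 6 of 8 post-meiotic markers were lower (median -0.02), as were 6 of 8 accessory gland markers (median -0.04). Near-mean arrays are those whose deviations correlate with no other array above 0.2. Alternatives were array weights, the compared groups alone, a robust and trended prior, median centring, the chemosensory mean as a covariate, a dim filter, the mean of a gene's rows, the replicate number as a block, leaving out each array or the near-mean arrays, and adding the treated metastasis. Promoters came from RefSeq (GRCm38.p6). Part of the genotype is not reported here.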

Additional observations from a re-analysis of the deposited data

Results flagged for a closer look

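Dazl in the treated metastasis, a sample that entered no comparison, had a log2 value of 4.98, just above the highest control bladder, 4.95. The other 9 germline genes did not exceed their highest control there. No array stood apart from its group in the 30 tests of the 10 genes in groups of 4 to 7 arrays (metastasis, control bladder and bladder tumor), of which chance flags about 1 in 20.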

How the results depend on the processing

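None of the 10 germline genes was called in any comparison under any alternative run, the lowest adjusted p being 0.481 (limma). Over 768 alternative values of their differences, 764 moved by less than 1 SD and 4 by more, and the sign turned in 136. In treated bladder against bladder tumor the 197 values ran from -0.14 to 0.30, with the sign turned in 51. Counts over all genes moved from 0 in metastasis against bladder tumor to 2 with array weights, 1 with the chemosensory mean as a covariate and 4 without the near-mean arrays, and ran from 0 to 2 when each array was left out, the 2 without bladder tumor 6. Without the near-mean arrays 1 gene was called in treated bladder against control bladder and 1 in bladder tumor against control bladder, Xist in both, with differences of -4.82 and -6.08 from the 2 controls left. Pairs above background fell to 2 with the 99th percentile in place of the 95th, against 17. With the replicate number as a block, 0 genes were called in treated bladder against bladder tumor. Same-numbered arrays of these groups had deviations correlated at 0.444, -0.315 and 0.06. The last pair includes bladder tumor 3, a near-mean array, and these few values cannot tell whether the numbers pair the samples. The dim filter dropped Dazl, Mael and Tex101, which gave no value there. Signal at or near background limits what these arrays can show for all 10 genes.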
